A study of Mus musculus with 12 samples.

Results

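The hemoglobin and erythroid genes Hbb-b2, Hbb-bs, Hbb-bt, Hba-a1, Hba-a2, Alas2, Slc4a1, Car2 and Fech were followed across the 4 genotypes of a microarray study of the mouse growth plate. Their probes were found by symbol in the annotation of the array platform, which listed 13 probes for 6 of the 9 genes. Hba-a2, Car2 and Fech had no probe under their symbols and were not analysed here. A probe was kept where its detection score, which is 1 minus a detection p value, was above 0.95 on at least 3 of the 12 arrays. All 13 listed probes passed, among 12023 probes tested. They comprised 1 probe for Hba-a1, 5 for Hbb-bs, 4 for Hbb-bt, and 1 each for Hbb-b2, Alas2 and Slc4a1.

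RNA came from the microdissected hypertrophic zone of 1 proximal tibial growth plate of each mouse at 2 weeks of age, with 3 mice and 3 Illumina MouseWG-6 v2 arrays per genotype. In Xbp1CartΔEx2 mice, Cre recombinase driven by Col2a1 removes exon 2 of Xbp1, so the deletion is directed at Col2a1-expressing cells. ColXN617K mice carry the p.Asn617Lys substitution in Col10a1, with a residual loxP site left by the targeting. C/X mice carry both changes, and wildtype mice carry neither. The labels give a mixed strain background for all 4 genotypes. The ER stress caused by the mutant collagen X, and its dependence on XBP1, was the question of the study.

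Hemoglobin of the adult mouse is a tetramer of alpha chains, encoded by Hba-a1 and Hba-a2, and beta chains, encoded at the Hbb locus. Inbred mouse strains carry different haplotypes of that locus, in which the adult beta chains come either from Hbb-bs and Hbb-bt or from Hbb-b1 and Hbb-b2. Alas2 encodes the erythroid form of the first and rate-limiting enzyme of heme synthesis, and Slc4a1 encodes band 3, the anion exchanger of the red cell membrane. Growth plate cartilage is avascular, and blood vessels and marrow meet the hypertrophic zone at its lower border.

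The bases directly upstream of the annotated starts of Hba-a1, Hbb-bs, Hbb-bt and Alas2 are shown because most probes of these genes were called lower in both collagen X mutants. The windows of 150 bases are from RefSeq on GRCm38.p6, which matched 5 of the 9 genes by symbol, Hba-a2 included. Capitals mark matches on either strand to GATAA, the core of a site for GATA factors, to CACCC, the core of a site for KLF factors, to CCAAT and to TATAA, which stand for the boxes of those names. No base was shared by matches of different motifs.
Hba-a1, chr11:32283522-32283671, plus strand: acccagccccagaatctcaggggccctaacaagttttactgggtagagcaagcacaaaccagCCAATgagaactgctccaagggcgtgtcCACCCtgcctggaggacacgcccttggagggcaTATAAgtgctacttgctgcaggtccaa
Hbb-bs, chr7:103827929-103828078, minus strand: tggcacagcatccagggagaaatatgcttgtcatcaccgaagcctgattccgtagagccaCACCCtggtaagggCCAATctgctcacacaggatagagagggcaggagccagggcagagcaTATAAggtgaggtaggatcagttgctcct
Hbb-bt, chr7:103813924-103814073, minus strand: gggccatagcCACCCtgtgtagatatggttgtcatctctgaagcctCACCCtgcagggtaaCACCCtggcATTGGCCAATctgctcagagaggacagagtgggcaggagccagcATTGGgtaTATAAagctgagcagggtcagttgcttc
Alas2, chrX:150547267-150547416, plus strand: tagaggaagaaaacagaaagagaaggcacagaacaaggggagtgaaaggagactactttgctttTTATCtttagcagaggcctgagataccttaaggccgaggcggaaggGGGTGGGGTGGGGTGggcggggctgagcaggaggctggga

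Both beta-globin windows held CACCC and, nearer the start, CCAAT followed by TATAA, and the Hba-a1 window held CCAAT before CACCC. The match to TATAA started 27 bases before the start of Hba-a1, 29 before that of Hbb-bs and 28 before that of Hbb-bt. The Hbb-bt window held CACCC at 3 places, and the Hbb-bs window at 1. The Alas2 window held neither CCAAT nor TATAA. It held GATAA on the opposite strand 86 bases before the start and CACCC on the opposite strand at 3 adjoining places. Of 32851 mouse promoter windows of the same length, 13.3% held GATAA, 37.4% held CACCC, 24.5% held CCAAT and 14.2% held TATAA. The 300-base windows of Hba-a1 and Hba-a2 shared a run of 297 identical bases. These matches describe the sequence and do not show that a factor binds there.

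Between 17.1% and 28.4% of probes per array were above background, and arrays of a genotype correlated at 0.867 to 0.985, lowest in ColXN617K. The Xbp1 probe averaged 10.91 ± 0.07 in Xbp1CartΔEx2, 11.60 ± 0.32 in ColXN617K, 10.77 ± 0.52 in C/X and 10.73 ± 0.28 in wildtype on the log2 scale (SD, n = 3 each). Its position relative to exon 2 is not given in the sources used here, so it does not test the deletion. Of 12 growth plate chondrocyte markers 11 were measured, and Col10a1 was above background on every array. Of the 11, 4 were called lower in each collagen X mutant than in wildtype, Col10a1 included, and none in Xbp1CartΔEx2. In these bulk samples, fewer erythroid cells and less RNA per cell cannot be told apart.

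**Figure D1:**
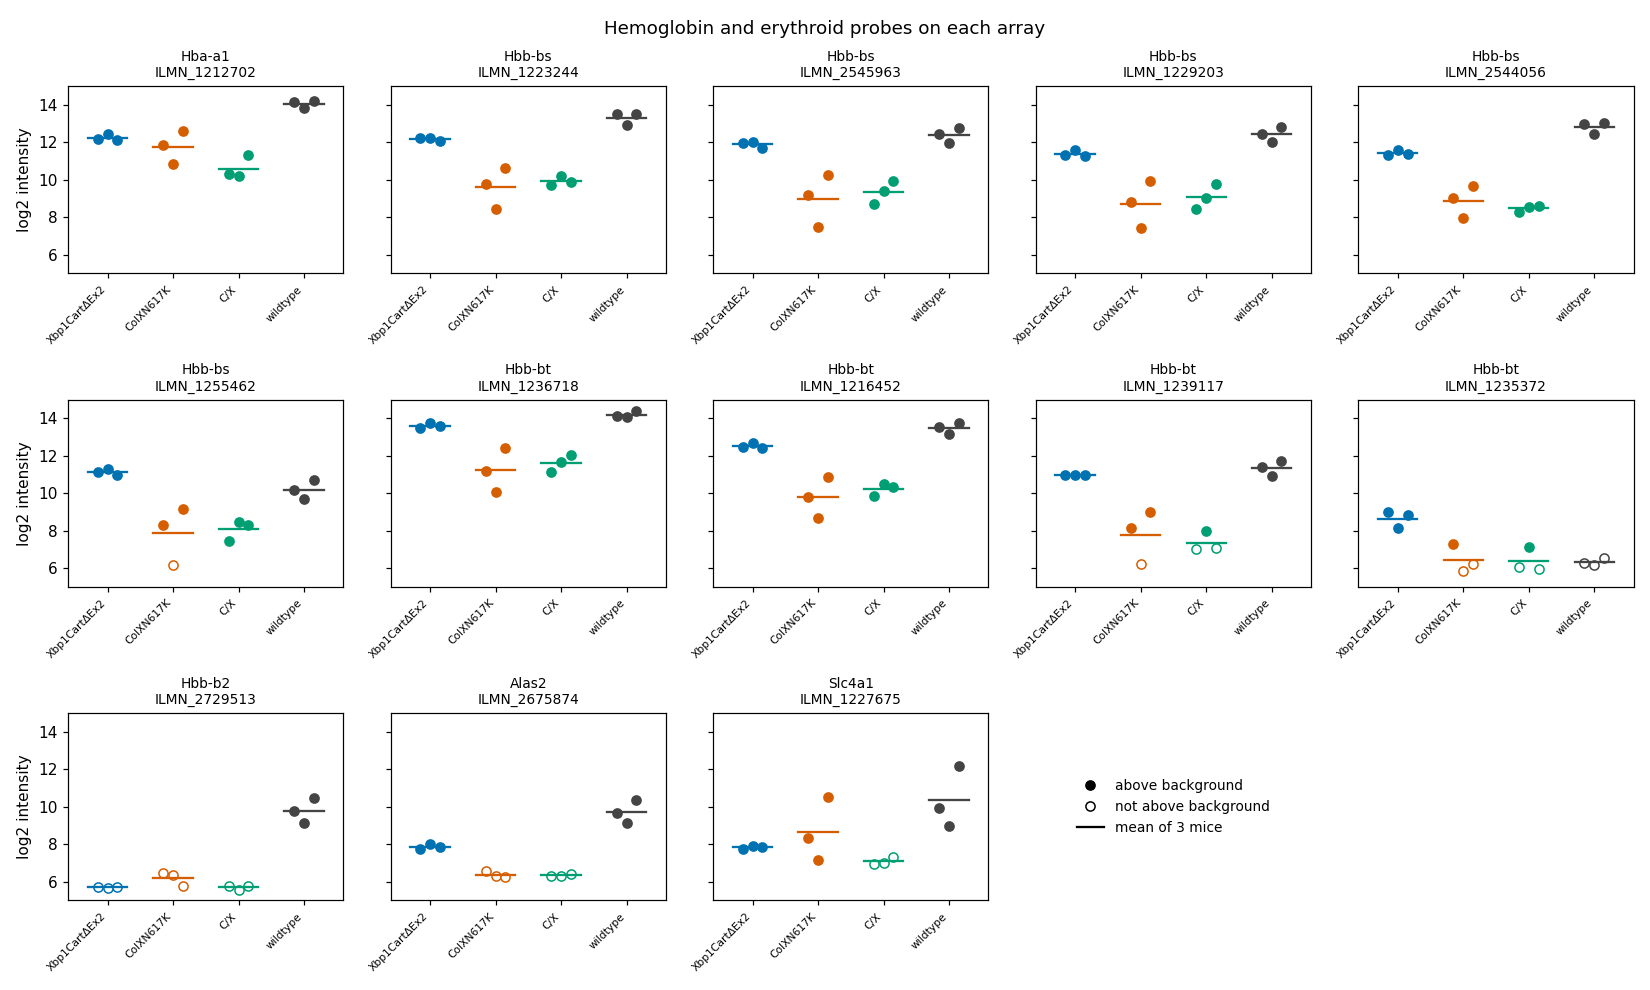
Log2 intensity (vertical axis) of the 13 hemoglobin and erythroid probes on each of the 12 arrays, by genotype; open points were not above background and bars are means of 3 mice. The Hbb-b2 points are open on all 9 mutant arrays, and the Hbb-bt probe ILMN_1235372 is open on all 3 wildtype arrays.

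The alpha-globin probe read lower on every mutant array than on every wildtype array. Hba-a1 (ILMN_1212702) measured 12.17, 12.45 and 12.12 on the log2 scale in Xbp1CartΔEx2, 11.86, 10.82 and 12.58 in ColXN617K, 10.30, 10.19 and 11.30 in C/X, and 14.16, 13.82 and 14.23 in wildtype. All 9 mutant values lay below all 3 wildtype values, and the Xbp1CartΔEx2 values lay inside the range of ColXN617K. The level was 3.54-fold below wildtype in Xbp1CartΔEx2 (log2 fold change -1.82, SE 0.40, adjusted p = 0.0174), which missed the threshold of 0.01. It was 4.99-fold lower in ColXN617K (log2 fold change -2.32, adjusted p = 0.00103) and 11.11-fold lower in C/X (-3.47, adjusted p = 8.26e-05), and both passed. C/X was also 3.14-fold lower than Xbp1CartΔEx2 (adjusted p = 0.00875), a call that was lost without any one of the wildtype or Xbp1CartΔEx2 arrays, without C/X replicate 1 or 2 and without ColXN617K replicate 1, with adjusted p of 0.0119 to 0.0400. C/X and ColXN617K overlapped, with a log2 difference of -1.16 (95% interval -2.02 to -0.29, adjusted p = 0.0707).

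Differences were tested with limma's moderated test across all 12023 probes, and a probe was called at a fold of at least 2 and a Benjamini-Hochberg adjusted p of 0.01 or less. In Xbp1CartΔEx2 against wildtype, 2 of the 13 probes were called lower, Hbb-b2 and Alas2, where 0.591% of all tested probes were, and 1 was called higher, the Hbb-bt probe ILMN_1235372, where 1.17% were. Hbb-b2 passed the filter through the wildtype arrays alone and ILMN_1235372 did not pass it without the Xbp1CartΔEx2 arrays, so their calls depend on the genotype in which they are high and are no support for a change of the 13. The other 11 passed without the arrays of any one genotype. Among the 9842 probes that did so, 1 of the 11, Alas2, was called lower in Xbp1CartΔEx2, where 0.589% were. The median log2 fold change of the 13 probes was -1.03, against 0.01 over all tested probes, and it was also -1.03 over the 11. In 9 of the 13, all Xbp1CartΔEx2 values lay below all wildtype values, which held for 17.8% of all tested probes. Hbb-b2 is among the 9 through its filter, so its part in that count is no support. The count of 3 calls was 0 without wildtype replicate 1 and 1 without wildtype replicate 2 or 3, where Hbb-b2 no longer passed the filter and was not tested. It was 1 without any one of the Xbp1CartΔEx2 arrays, 2 without C/X replicate 1, and 5 without ColXN617K replicate 2 or 3. With the genotypes compared alone in the model, 5 were called.

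Against wildtype, 10 of the 13 probes were called lower in ColXN617K, where 7.16% of all tested probes were, and 10 in C/X, where 5.21% were. Over the 13, the log2 fold changes had medians of -3.41 (ColXN617K) and -3.35 (C/X), against 0.00 and 0.02 over all tested probes, and of -2.96 and -3.06 with the probes that were below background in a whole genotype set at the least difference that the background limit allows. None of the 13 was called higher, where 7.31% of all tested probes were in ColXN617K and 6.52% in C/X. Groups did not overlap in 11 of the 13 probes in ColXN617K, all lower, where 19.1% of all tested probes lay so, and in 12 in C/X, where 19.6% did. Hbb-b2 is among these in both mutants through its filter, so its part in these counts is no support. The 10 were the same in both mutants and comprised Hba-a1, Hbb-b2, Alas2, 4 Hbb-bs probes and 3 Hbb-bt probes. Of the 11 that passed the filter without any one genotype, 9 were called lower in ColXN617K (8.43% of the probes so filtered) and 10 in C/X (6.12%), where Slc4a1 was added with an adjusted p of 0.00997. Over the 11, the medians were -3.41 in ColXN617K and -3.35 in C/X. Against Xbp1CartΔEx2, 11 probes were called lower in C/X, where 7.60% of all tested probes were, and the median was -2.27. Among them, ILMN_1235372 did not pass the filter without the Xbp1CartΔEx2 arrays, so its call is no support. Of the 11 probes that passed the filter without any one genotype, 10 were called lower (7.76% of the probes so filtered), with a median of -2.30 over the 11. The count of 11 calls was 5 to 7 without C/X replicate 1 or 2 or any one of the Xbp1CartΔEx2 arrays. In 12 of the 13 all C/X values lay below all Xbp1CartΔEx2 values, as in 21.2% of all tested probes. ILMN_1235372 is among the 12, and its part in that count is no support either. These comparisons share the wildtype or the C/X arrays. Between C/X and ColXN617K limma called 0 of the 13, where 5.26% of all tested probes were called, and 1 of the 13 had an unadjusted p under 0.05, as did 29.2% of all tested probes.

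**Figure D2:**
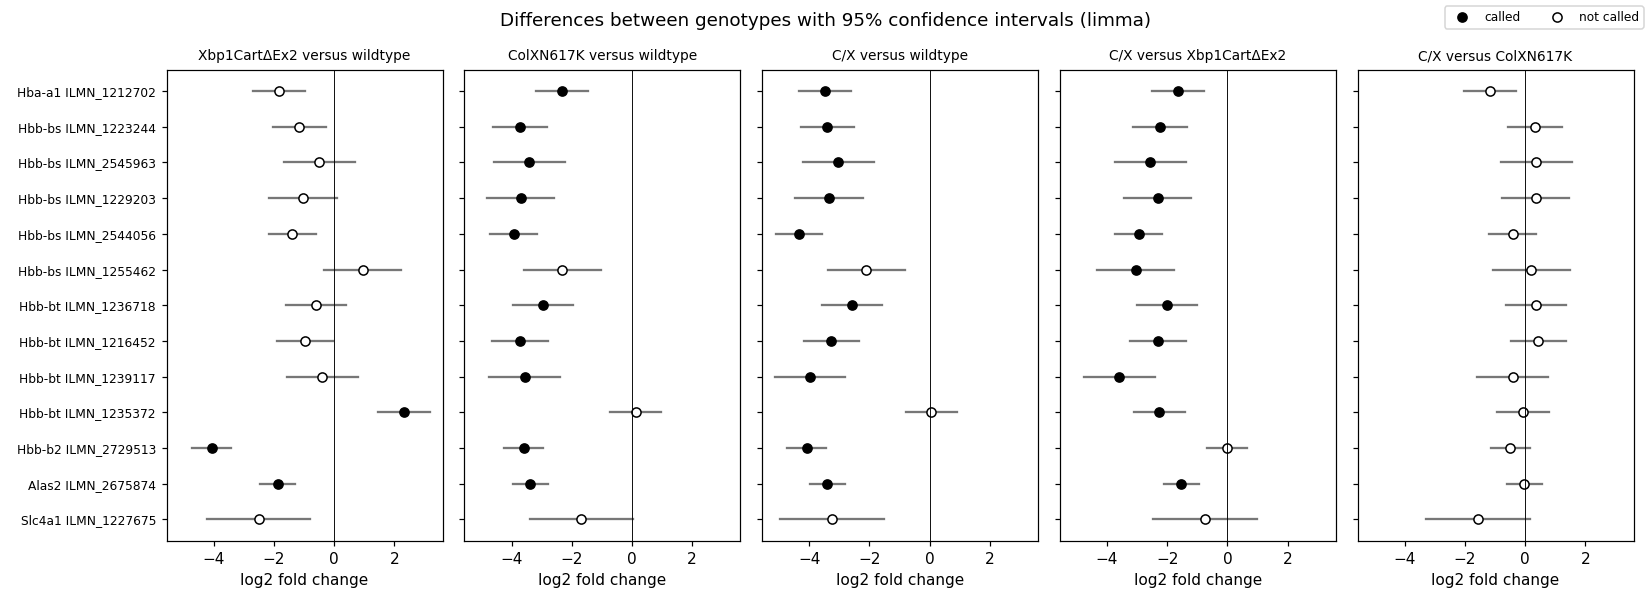
Log2 fold change (horizontal axis) of each probe in 5 comparisons of genotypes, with 95% confidence intervals; filled points passed a fold of 2 and an adjusted p of 0.01. Filled points number 3, 10, 10, 11 and 0 over the panels, taken from Xbp1CartΔEx2 versus wildtype to C/X versus ColXN617K.

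Hbb-bs and Hbb-bt encode adult beta chains. The Hbb-bt probe ILMN_1236718 measured 13.46, 13.76 and 13.57 on the log2 scale in Xbp1CartΔEx2, 11.20, 10.05 and 12.44 in ColXN617K, 11.12, 11.66 and 12.02 in C/X, and 14.12, 14.05 and 14.40 in wildtype. It was 7.77-fold lower in ColXN617K (log2 fold change -2.96, SE 0.46, adjusted p = 0.000495) and 6.03-fold lower in C/X (-2.59, adjusted p = 0.00150) than in wildtype. In Xbp1CartΔEx2 it did not pass (-0.60, 95% interval -1.59 to 0.39, adjusted p = 0.472), although the 3 values lay below those of wildtype.

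The Hbb-bs probe ILMN_2544056 was above background on every array. It measured 11.32, 11.59 and 11.36 in Xbp1CartΔEx2, 9.05, 7.94 and 9.68 in ColXN617K, 8.27, 8.56 and 8.59 in C/X, and 12.97, 12.43 and 13.04 in wildtype on the log2 scale. The mutant values were all below those of wildtype, and those of C/X and ColXN617K overlapped. It was 15.17-fold lower in ColXN617K (adjusted p = 1.37e-05) and 20.24-fold lower in C/X (adjusted p = 6.85e-06) than in wildtype. In Xbp1CartΔEx2 it was 2.62-fold lower with an adjusted p of 0.0368, which did not pass.

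Another 3 Hbb-bs probes (ILMN_1223244, ILMN_2545963 and ILMN_1229203) and 2 Hbb-bt probes (ILMN_1216452 and ILMN_1239117) were called lower in both collagen X mutants, with log2 fold changes against wildtype of -3.41 to -3.71 in ColXN617K and -3.04 to -3.97 in C/X. None of the 5 was called in Xbp1CartΔEx2, where their log2 fold changes were -0.39 to -1.16 and adjusted p was 0.114 to 0.719. ILMN_2545963 and ILMN_1239117 overlapped between Xbp1CartΔEx2 and wildtype, and the other 3 did not. ILMN_1239117 was not above background in ColXN617K replicate 2 or in C/X replicates 1 and 3, where it measured 6.21, 7.04 and 7.07 on the log2 scale. Within ColXN617K, replicate 2 was the lowest and replicate 3 the highest at each of the 7 Hbb-bs and Hbb-bt probes that were called lower in both collagen X mutants, with a range between mice of 1.75 to 2.77 on the log2 scale. Xbp1CartΔEx2 mice spanned 0.01 to 0.36 at the same probes.

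A pair of beta-globin probes did not follow the others. The Hbb-bs probe ILMN_1255462 measured 11.11, 11.27 and 10.98 in Xbp1CartΔEx2, 8.32, 6.16 and 9.15 in ColXN617K, 7.47, 8.49 and 8.28 in C/X, and 10.15, 9.69 and 10.70 in wildtype on the log2 scale. Its Xbp1CartΔEx2 values all lay above those of wildtype (log2 fold change 0.94, SE 0.59, adjusted p = 0.371), in contrast to the other Hbb-bs probes, but the difference did not pass. Its differences in ColXN617K (-2.31, adjusted p = 0.0111) and C/X (-2.10, adjusted p = 0.0205) did not pass the threshold. The value of 6.16 in ColXN617K replicate 2 was not above background, and without ColXN617K replicate 3 both passed, with adjusted p of 0.00117 and 0.00556. C/X was called lower than Xbp1CartΔEx2 at this probe (log2 fold change -3.04, adjusted p = 0.00235).

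The Hbb-bt probe ILMN_1235372 measured 8.98, 8.12 and 8.85 in Xbp1CartΔEx2, 7.27, 5.87 and 6.23 in ColXN617K, 6.07, 7.14 and 5.93 in C/X, and 6.27, 6.19 and 6.52 in wildtype on the log2 scale. It was above background on all 3 Xbp1CartΔEx2 arrays, on 1 ColXN617K array and 1 C/X array, and on no wildtype array, so it passed the filter mainly through Xbp1CartΔEx2. It was called higher in Xbp1CartΔEx2 than in wildtype (log2 fold change 2.32, SE 0.39, adjusted p = 0.00586), and the fold was at least 2.01 when wildtype was set at the background limit of its arrays. A bound of that kind sets the mean of the brighter genotype against the dimmer one, taking on each of its arrays the lowest signal above background or the probe's own value, whichever is higher. The call was lost without any one of the wildtype or Xbp1CartΔEx2 arrays and without C/X replicate 1, with adjusted p of 0.0103 to 0.0337. C/X was lower than Xbp1CartΔEx2 (-2.27, adjusted p = 0.00115).

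Hbb-b2 (ILMN_2729513) was measured in wildtype only. It read 5.71, 5.68 and 5.74 in Xbp1CartΔEx2, 6.46, 6.35 and 5.76 in ColXN617K, 5.77, 5.55 and 5.77 in C/X, and 9.78, 9.11 and 10.45 in wildtype on the log2 scale. None of the 9 mutant values was above background, at a scale whose lowest tested value was 5.53. The probe passed the filter through the wildtype arrays alone, so it had to differ between the genotypes, and its values are given as a description. The wildtype level was at least 5.71-fold that of Xbp1CartΔEx2, at least 6.02-fold that of ColXN617K and at least 5.62-fold that of C/X. The labels give no Hbb haplotype for any mouse, so the amount of beta-globin RNA and the haplotype that it came from cannot be told apart at these probes. Probe sequences were not used here, and probes of near-identical globin genes can share signal.

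Each probe's difference from the median of the 13 probes on the same array was also compared, which removes a shift that all of them share. It was read only for the 8 probes that were above background on at least 11 of the 12 arrays, since at background the difference follows the median alone. At ILMN_1255462 this difference averaged -0.26 in Xbp1CartΔEx2, -0.85 in ColXN617K, -0.39 in C/X and -2.20 in wildtype on the log2 scale, with no overlap between wildtype and any mutant. The value of ColXN617K replicate 2 was not above background. An exact permutation test of 3 mice against 3 cannot go below a two-sided p of 0.10, so these differences are described by their values alone. At the Hbb-bt probe ILMN_1236718 the averages were 2.21 in Xbp1CartΔEx2, 2.51 in ColXN617K, 3.12 in C/X and 1.81 in wildtype, and the wildtype values lay below those of every mutant. At the Hbb-bs probe ILMN_2545963 they were 0.51, 0.24, 0.86 and 0.00 in that order, and wildtype again lay below every mutant. This probe was itself the median on the wildtype arrays. At ILMN_2544056, the median on the C/X arrays, the averages were 0.04, 0.16, 0.00 and 0.44 in that order. There wildtype lay above Xbp1CartΔEx2 and C/X and overlapped ColXN617K. The averages were 0.78, 0.88, 1.45 and 0.95 at ILMN_1223244, 0.01, 0.00, 0.60 and 0.05 at ILMN_1229203, and 1.14, 1.05, 1.75 and 1.11 at ILMN_1216452.

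**Figure D3:**
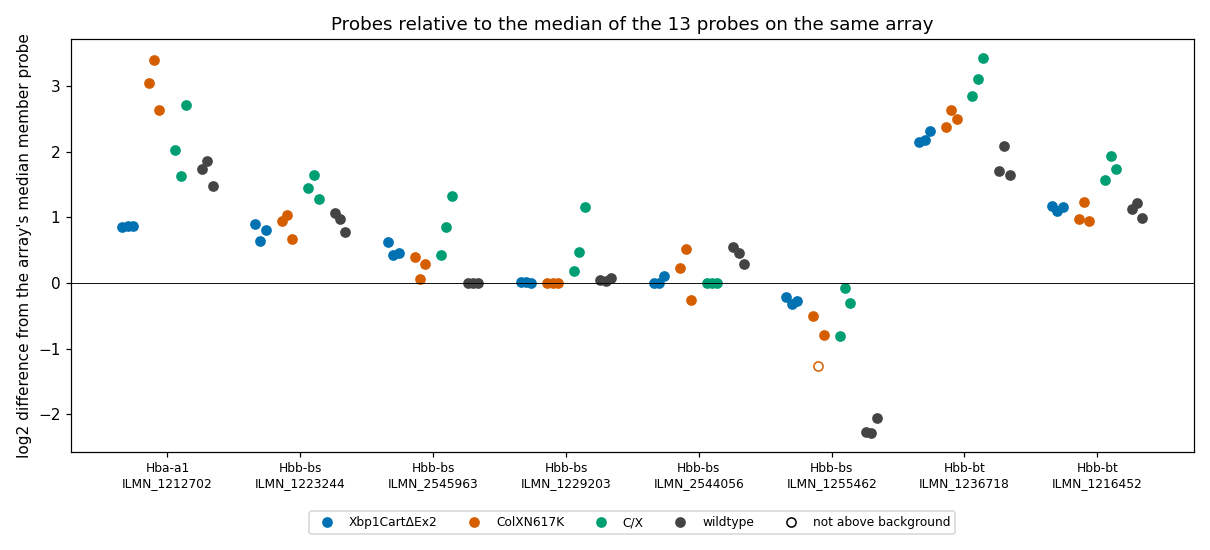
Log2 difference (vertical axis) of the 8 probes measured on at least 11 arrays from the median of the 13 probes on the same array, by genotype, with the open point not above background. The wildtype points lie below those of all 3 mutants at ILMN_1255462, ILMN_1236718 and ILMN_2545963, and at Hba-a1 the Xbp1CartΔEx2 points lie lowest. At ILMN_2544056 the wildtype points lie above those of Xbp1CartΔEx2 and C/X.

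Hba-a1 stood 0.86 above the array median in Xbp1CartΔEx2, 3.02 in ColXN617K, 2.12 in C/X and 1.70 in wildtype. The Xbp1CartΔEx2 values lay below and the ColXN617K values above all wildtype values, and those of C/X overlapped wildtype. In wildtype, Hba-a1 averaged 14.07 and the Hbb-bt probe ILMN_1236718 averaged 14.19, on a scale whose highest tested value was 14.61. What this does to their differences between genotypes was not tested.

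The erythroid heme synthesis gene Alas2 (ILMN_2675874) measured 7.74, 7.99 and 7.87 in Xbp1CartΔEx2, 6.55, 6.29 and 6.24 in ColXN617K, 6.29, 6.30 and 6.42 in C/X, and 9.68, 9.16 and 10.38 in wildtype on the log2 scale. The genotypes did not overlap, except that C/X and ColXN617K lay together below background. Alas2 was 3.66-fold lower in Xbp1CartΔEx2 than in wildtype (log2 fold change -1.87, SE 0.26, adjusted p = 0.00211). The fitted log2 fold change against wildtype was -3.38 in ColXN617K (adjusted p = 4.81e-06) and -3.40 in C/X (adjusted p = 4.94e-06). That of C/X against Xbp1CartΔEx2 was -1.53 (adjusted p = 0.00114). By the bounds, which were not tested, the wildtype level was at least 5.83-fold that of ColXN617K and at least 5.44-fold that of C/X. The Xbp1CartΔEx2 level was at least 1.49-fold that of C/X, which is under the fold minimum. The call in Xbp1CartΔEx2 was lost without wildtype replicate 1 or any one of the Xbp1CartΔEx2 arrays, with log2 fold changes of -1.81 to -1.92 and adjusted p of 0.011 to 0.0166.

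The band 3 gene Slc4a1 (ILMN_1227675) measured 7.76, 7.93 and 7.83 in Xbp1CartΔEx2, 8.33, 7.18 and 10.50 in ColXN617K, 6.96, 7.02 and 7.31 in C/X, and 9.91, 8.98 and 12.16 in wildtype on the log2 scale. Its values in Xbp1CartΔEx2 and C/X lay below all wildtype values, and those of ColXN617K overlapped wildtype. No difference passed in the model. The log2 fold change was -2.51 in Xbp1CartΔEx2 (SE 0.79, adjusted p = 0.0800), -1.68 in ColXN617K (adjusted p = 0.126) and -3.25 in C/X (adjusted p = 0.0102). No C/X value was above background, and the wildtype level was at least 8.31-fold that of C/X. Without wildtype replicate 3 the bound was 4.52-fold and the log2 fold change -2.38 (not called), and without wildtype replicate 2 they were 13.49-fold and -3.96 (adjusted p = 0.00619). The spread among mice was wide, with an SD of 1.69 in ColXN617K and 1.64 in wildtype, against 0.08 in Xbp1CartΔEx2 and 0.19 in C/X. Without ColXN617K replicate 3, the probe was called lower in ColXN617K (log2 fold change -2.60, adjusted p = 0.00925) and in C/X (-3.28, adjusted p = 0.0017).

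The combined effect of both changes was tested as the interaction, the effect of C/X over Xbp1CartΔEx2 minus that of ColXN617K over wildtype. Of the 13 probes 1, Hbb-b2, passed the threshold, where 0.957% of all tested probes were called higher. Its C/X, Xbp1CartΔEx2 and ColXN617K values all lay below background and it entered the test through wildtype alone, so the term could not be measured and its call is no result. Alas2 had 1.85 (adjusted p = 0.0138) and the Hbb-bt probe ILMN_1235372 had -2.40 (adjusted p = 0.0248), and neither passed. Without ColXN617K replicate 3 Alas2 passed (1.79, adjusted p = 0.00993).

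Other erythroid, heme and iron genes were described by the brightest probe of each gene. Of 31 measured in 5 lists, 2 were called in Xbp1CartΔEx2 (6.45%, against 1.76% of all tested probes), 3 in ColXN617K (9.68%, against 14.5%) and 4 in C/X (12.9%, against 11.7%). Of 17 erythroid membrane and cytoskeleton genes 6 were measured, and none was called in any mutant against wildtype. Of 11 erythroid transcription factors and receptors 3 were measured. Among them Lmo2, a partner of GATA factors in blood and endothelial cells, was called lower in ColXN617K (log2 fold change -1.51, adjusted p = 0.00305), where it was above background on 1 array, and in C/X (adjusted p = 0.00387), where it was on none. None of 6 embryonic and other globin genes had a tested probe under its symbol, and they were not analysed here.

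Of 13 late erythroid cytoplasm genes 6 were measured. Blvrb, a biliverdin reductase, was called lower in Xbp1CartΔEx2 (log2 fold change -1.60, adjusted p = 0.000751), and Prdx2, a peroxiredoxin of red cells and other tissues, in ColXN617K (-1.09, adjusted p = 0.0099). Prdx2 averaged 12.95 ± 0.20 in Xbp1CartΔEx2, against 12.20 ± 0.49 in wildtype (SD, n = 3), without passing. Of 13 heme synthesis and mitochondrial iron genes other than Alas2 and Fech, 9 were measured. Alad, the enzyme that follows Alas2 in the pathway, was called lower in Xbp1CartΔEx2 (-1.69, adjusted p = 0.00767) and C/X (-1.86, adjusted p = 0.000946), and averaged 10.82 ± 0.33 in ColXN617K and 10.21 ± 0.50 in wildtype (SD, n = 3). Ppox, a later enzyme of the pathway, was called higher in C/X (adjusted p = 0.0045), with 7.88 ± 0.69 in C/X and 5.91 ± 0.28 in wildtype (SD, n = 3), where no array was above background. It was above background on 2 C/X arrays, 1 ColXN617K array and 1 Xbp1CartΔEx2 array. Ppox thus did not pass the filter without the C/X arrays, and its call is no support for a change. Alas1, which encodes the form of the enzyme found in all tissues, was not called in any comparison and averaged 9.28 in Xbp1CartΔEx2, 10.64 in ColXN617K, 9.70 in C/X and 9.66 in wildtype.

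Of 10 iron uptake and storage genes 7 were measured. Hmox1, which breaks down heme, was called higher in ColXN617K (adjusted p = 0.00372) and in C/X (adjusted p = 0.00726) than in wildtype. It averaged 6.59 ± 0.29 in Xbp1CartΔEx2, 8.91 ± 1.21 in ColXN617K, 8.72 ± 0.63 in C/X and 6.51 ± 0.39 in wildtype (SD, n = 3), and was not above background in Xbp1CartΔEx2 or wildtype. Hmox1 was above background on 2 ColXN617K and 3 C/X arrays. It did not pass the filter without the C/X arrays, so its call in C/X depends on the genotype in which it is high. Tfrc, the transferrin receptor, was not called. Among 4 other anion exchangers and bicarbonate transporters of the Slc4 family 2 were measured, and among 11 carbonic anhydrases other than Car2 3 were, with none called.

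Markers of other cells that the dissected zone could hold moved with the globin probes in part. Of 20 endothelial markers 13 were measured. In ColXN617K 12 of them were called lower than in wildtype, where 7.16% of all tested probes were, with a median log2 difference of -2.63. In C/X 12 were (-2.45), where 5.21% were, and in C/X against Xbp1CartΔEx2 all 13 (-3.30), where 7.60% were. Pecam1 and Ramp2 did not pass the filter without the Xbp1CartΔEx2 arrays, so their calls are no support. The other 11 passed without any one genotype and were called lower in each of these comparisons. In Xbp1CartΔEx2 against wildtype none was called lower and 1, Pecam1, was called higher (adjusted p = 0.00586), with 8.74 ± 0.65 in Xbp1CartΔEx2 and 6.89 ± 0.50 in wildtype (SD, n = 3), where no array was above background. The median was 0.93 over the 13 and 0.79 over the 11. The count of 12 in C/X was 7 without wildtype replicate 3 and 8 without wildtype replicate 1, and Pecam1 was not called without any one of the wildtype arrays, ColXN617K replicate 1, or C/X replicate 1 or 2. Pecam1 passed the filter through the Xbp1CartΔEx2 arrays alone, and without any one of them it was not tested. The summed intensity of the 13 was 23386 to 39489 in Xbp1CartΔEx2, 1657 to 1991 in ColXN617K, 1520 to 4800 in C/X and 9468 to 23327 in wildtype. The adult globin genes, by the brightest probe of each of the 4 measured, summed to 20682 to 24298 in Xbp1CartΔEx2, 3303 to 13314 in ColXN617K, 4369 to 7675 in C/X and 39859 to 54106 in wildtype. In Xbp1CartΔEx2 the endothelial sum was thus above that of wildtype on every array while the globin sum lay below it. Cdh5, Pecam1 and Ramp2 were above background on no ColXN617K or C/X array, and Pecam1 was on no wildtype array either. The other measured endothelial markers were above background on some ColXN617K or C/X arrays, and Sox18 on all of them. The part of vessels in the globin values was not tested.

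Of all tested probes, 7.16% were called lower in ColXN617K and 5.21% in C/X than in wildtype, and 7.60% in C/X than in Xbp1CartΔEx2. Of 12 osteoclast markers 5 were measured, and 4 were called lower in ColXN617K than in wildtype. In C/X Acp5 was called lower than in wildtype. Clcn7 was called higher in both C/X and Xbp1CartΔEx2 than in wildtype, where it was above background on no array. Acp5 was above background on no ColXN617K or C/X array. It did not pass the filter without the Xbp1CartΔEx2 arrays, so its calls are no support. Against Xbp1CartΔEx2, 3 of the 5 were called lower in C/X, Acp5 among them, with a median of -1.38 over the 5. The summed intensity was 32266 to 38562 in Xbp1CartΔEx2, 6246 to 10332 in ColXN617K, 8777 to 22973 in C/X and 24215 to 34217 in wildtype. Of 10 macrophage markers 4 were measured, and Laptm5 was called lower in ColXN617K than in wildtype. In C/X, 2 of the 4 were called lower than in Xbp1CartΔEx2 (median -0.84 over the 4). Of 9 osteoblast markers 6 were measured, and Ibsp was called lower in ColXN617K and C/X than in wildtype. In C/X, 3 of the 6 were called lower than in Xbp1CartΔEx2 (median -2.16 over the 6). Of 13 granulocyte markers 5 were measured, of 8 B cell markers 1, and of 10 platelet and megakaryocyte markers 2, and none was called in any comparison. Granulocyte markers summed to 621 to 702 in Xbp1CartΔEx2, 663 to 2565 in ColXN617K, 719 to 864 in C/X and 744 to 4034 in wildtype. S100a9 and Mpo were above background on no Xbp1CartΔEx2 or C/X array, Ctsg on no Xbp1CartΔEx2 array, and Prtn3 and Itgam on no C/X array. The sums of these 2 genotypes are thus in large part background. The part of any of these cells in the globin values was not tested.

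**Figure D4:**
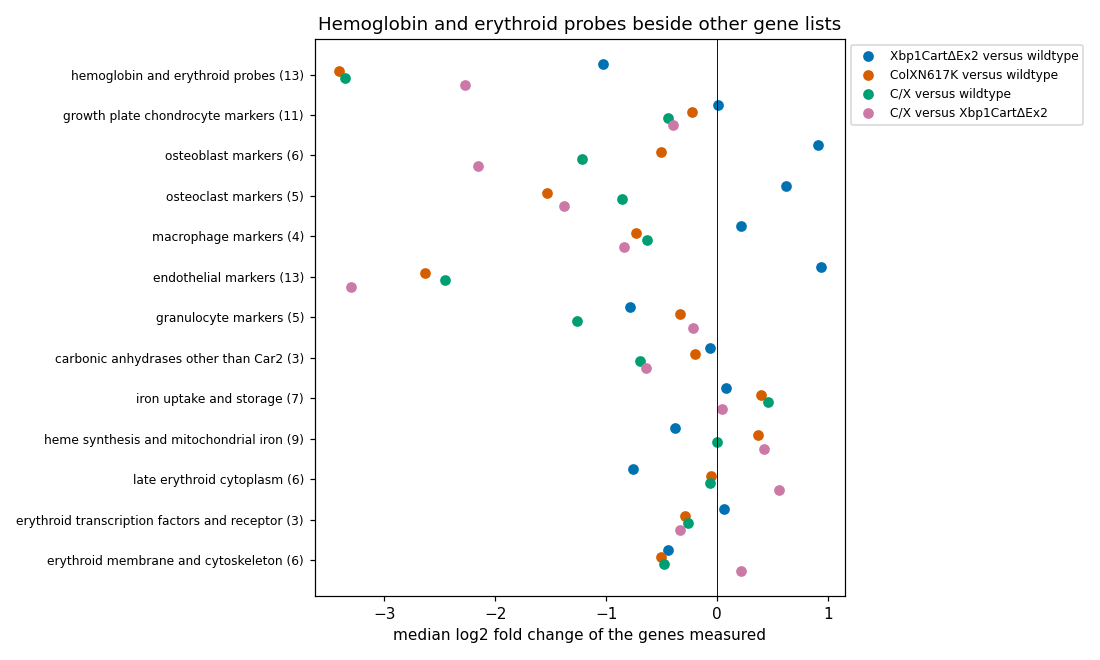
Median log2 fold change (horizontal axis) of the 13 hemoglobin and erythroid probes and of the measured genes of 12 other lists, with the number measured in brackets, in 4 comparisons. The endothelial median is 0.93 in Xbp1CartΔEx2 against wildtype, where that of the hemoglobin and erythroid probes is -1.03.

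Likeness among the probes is given as Pearson's r over the 12 arrays, which share their 4 genotypes, so it is a description without a test. The 36 pairs of Hbb-bs and Hbb-bt probes had a median r of 0.96, and a range of 0.28 to 1.00. The 13 were also set against the mean of the 9 Hba and Hbb probes that averaged at least 8 on the log2 scale. The Hbb-bt probe ILMN_1235372 had the lowest r, at 0.364, Hbb-b2 had 0.616, Slc4a1 0.632 and Alas2 0.897. These probes are not part of that mean and each of the 9 is, so their r are not alike measures. Hbb-b2 was below background on all mutant arrays. The genes most like that mean were Eva1b (r = 0.972), Pdlim7 (0.952), Rhebl1 and Slc44a2 (0.948 each), H4c1 (0.947), Luzp1 and Slc25a25 (0.946 each) and Lnx2 (0.945). Eva1b averaged 10.05 ± 0.28 in Xbp1CartΔEx2, 8.06 ± 0.59 in ColXN617K, 7.94 ± 0.15 in C/X and 10.48 ± 0.24 in wildtype on the log2 scale (SD, n = 3 each).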

How the data were processed

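The authors amplified RNA from the dissected zones in repeated rounds and measured it on Illumina MouseWG-6 v2 arrays, with a single mouse on each. They deposited intensity values before background correction or normalization, with a detection score, for 45281 probes, and their own normalized log2 values for 11338 probes. Here the intensities were read into limma 3.58.1 (R 4.3.3). The neqc function was used with its offset of 16 and with control levels estimated through the detection scores, and its quantile step gives every array 1 distribution, so that a level is relative to its array. No value differed from the deposited log2 values by more than 0.0339.

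The filter kept 12023 probes that had a detection score above 0.95 on 3 arrays or more. The fit had a mean per genotype (8 residual and 4.28 prior degrees of freedom), and Benjamini-Hochberg adjustment was done separately in each of 6 contrasts. The replicates are separate mice. Arrays give no counts, so the precision rests on 3 arrays per genotype. Symbols came from the platform annotation, where 10069 probes have 1 symbol and 5 have several, and 2152 tested probes have none. Promoters came from RefSeq (GRCm38.p6). The text names every listed probe of the hemoglobin and erythroid genes, genes of 17 lists, and the 8 genes most like the globin profile. These genes and lists were chosen with earlier results of these data known. Scripts were tested on simulated data.

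Each result was recomputed without background correction, with an offset of 50, with cyclic loess or median scaling, without the filter, with a score above 0.99, with detection on every array of 1 genotype, with only the genotypes compared in the model, with array weights, with trended and robust moderation (statmod 1.5.0), on the deposited normalized values, with replicate numbers as a block, at an adjusted p of 0.05, without a fold minimum, and leaving out each array. A filter that a probe had to pass without the arrays of any one genotype was added after seeing the data.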

Additional observations from a re-analysis of the deposited data

Results flagged for a closer look

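Hbb-b2 (ILMN_2729513) is listed because its interaction term, the collagen X effect without Xbp1 minus that with it, passed the threshold. The fitted log2 effect of C/X over Xbp1CartΔEx2 was -0.02 and that of ColXN617K over wildtype was -3.59, and their difference was 3.58. C/X averaged 5.70 ± 0.13, Xbp1CartΔEx2 5.71 ± 0.03, ColXN617K 6.19 ± 0.38 and wildtype 9.78 ± 0.67 on the log2 scale (SD, n = 3 each). The probe was above background on the 3 wildtype arrays and on none of the other 9, so it entered the test through wildtype alone and a change of C/X relative to Xbp1CartΔEx2 could not be measured. The value is therefore no evidence that the effects differ.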

How the results depend on the processing

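Over 78 differences of single probes, 1814 of 1985 values under the alternatives kept their direction and their side of the threshold, 91 lost and 42 gained a call, and 38 changed sign, all of them differences that were not called. The cause of these changes was not tested, except where a probe left the filter. Hbb-b2 kept its calls against wildtype under every setting in which it was tested. That adds no support, since it entered the main test through wildtype alone and its mutant values all lay below background. Without any one wildtype array Hbb-b2 was not tested because fewer than 3 arrays were above background.

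The count of calls in Xbp1CartΔEx2 against wildtype, 3, was 1 with cyclic loess, 1 with median scaling, 5 with only the compared genotypes in the model, 7 with array weights and 5 at an adjusted p of 0.05. With only the probes that passed the filter without any one genotype, an alternative chosen after seeing the data, it was 1, and the count in the interaction was 0. In C/X against Xbp1CartΔEx2 it was 3 with median scaling and 4 without the filter, in place of 11. Between C/X and ColXN617K it was 1 with array weights in place of 0, and in the interaction 0 with median scaling, 4 with array weights and 3 at an adjusted p of 0.05, in place of 1. Leaving out each array gave 0 to 5 calls in Xbp1CartΔEx2 against wildtype, 9 to 12 in ColXN617K, 8 to 12 in C/X, 5 to 11 in C/X against Xbp1CartΔEx2, 0 in C/X against ColXN617K and 0 to 2 in the interaction. Median scaling moved the median of all tested probes by up to 1.05 on the log2 scale, in ColXN617K against wildtype, where the median of the 13 probes was then -2.69 and 91.1% of all calls were higher in place of 50.5%.

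The replicate numbers of the titles did not pair the mice (18 pairs, correlations of -0.33 to 0.66, 7 over 0.1, and 6 of 12 arrays best with their own number). With them as a replicate block the counts were 3, 11, 11, 11, 0 and 1 in the order above. The numbers of the descriptions (14 pairs, -0.63 to 0.43) as a replicate block gave 1 in Xbp1CartΔEx2 against wildtype, 8 in ColXN617K, 7 in C/X and 2 in C/X against Xbp1CartΔEx2, with Slc4a1 in the last at 0.13. These numbers are spread unevenly over the genotypes, and 1 of them holds only ColXN617K and C/X arrays. That block therefore takes up part of the genotype differences.

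Signs changed mostly between C/X and ColXN617K. There, median scaling gave -0.58 for Hbb-bt ILMN_1216452, -0.90 for Hbb-bt ILMN_1236718, and -0.65, -0.28 and -0.33 for the Hbb-bs probes ILMN_1223244, ILMN_1229203 and ILMN_2545963, cyclic loess gave 0.16 for ILMN_1239117 and 0.06 for Alas2, and array weights gave -0.06 for ILMN_1255462. In the interaction median scaling gave -0.47 for Hba-a1, -0.04 for Slc4a1, -0.17 for ILMN_1236718 and -0.05 for ILMN_2545963, and ILMN_1239117 had 0.60 with cyclic loess and 0.17 with no background correction. The last setting gave -0.03 for ILMN_1235372 in C/X against wildtype.

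Leaving out each array, the range between C/X and ColXN617K was -0.12 to 0.99 for ILMN_1216452, -0.26 to 0.82 for ILMN_1223244, -0.30 to 0.97 for ILMN_1229203, -0.23 to 0.96 for ILMN_1236718, -0.64 to 0.86 for ILMN_1255462, -0.38 to 1.00 for ILMN_2545963, -0.45 to 0.32 for ILMN_1235372, -1.13 to 0.19 for ILMN_1239117 and -0.09 to 0.07 for Alas2. It was -0.28 to 0.40 for ILMN_1235372 in ColXN617K against wildtype, -0.32 to 0.29 in C/X against wildtype, -0.75 to 0.57 for ILMN_1239117 in the interaction and -0.05 to 0.06 for Hbb-b2 in C/X against Xbp1CartΔEx2. The 12 endothelial calls in C/X were 1 with median scaling, where the 12 in ColXN617K were 4, and were 6 without the filter, 8 with only the compared genotypes in the model and 6 with the description numbers as a replicate block. Pecam1 in Xbp1CartΔEx2 was not called with cyclic loess, median scaling, no filter, only the compared genotypes or the description block. Values below background have no order, which limits Hbb-b2, Alas2, Slc4a1 and ILMN_1235372.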
